A study of Mus musculus with 6 samples.

Results

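The insulin-like growth factor (IGF) family was examined in mouse SC4 cells, a line isolated from a schwannoma, a tumour of the Schwann cells that wrap nerves. The group of genes was given by name: the ligand genes Igf1 and Igf2, the receptor gene Igf1r, the adaptor gene Irs1 and the binding protein genes Igfbp2, Igfbp3, Igfbp4, Igfbp5, Igfbp6 and Igfbp7. All 10 were among the 23366 genes listed, and 8 of them had the mean of at least 10 normalized counts required for testing, as did 12820 genes in all. SC4 cells in both groups lack Nf2, which encodes merlin, a tumour suppressor that restrains the transcriptional co-activator YAP. They were transfected with a Lipofectamine reagent and either a control siRNA or a pool of siRNAs against YAP, and RNA was collected 48 hours later. There were 3 libraries in each group, numbered 1 to 3 in both, and all came from 1 line kept in medium with serum. Whether the 3 were separate cultures is not stated, and p-values therefore reflect the scatter of these libraries alone, which could be technical.

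IGF1 and IGF2 are secreted growth factors that bind the receptor tyrosine kinase encoded by Igf1r. The active receptor phosphorylates docking proteins such as IRS1, which recruit PI3-kinase and lead to activation of AKT and restraint of FOXO transcription factors. IGF binding proteins hold the ligands outside the cell, can block or prolong their action, and are themselves cut by proteases. IGF signalling supports survival and growth of Schwann cells.

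Libraries held between 18025132 and 60078880 reads in genes, so that 1 read was worth between 0.461 and 1.52 of the normalized counts used here (gene counts after division by the size factor of the library). Yap1, the target of the siRNA pool, went from 5078 ± 566.5 to 661 ± 244 normalized counts (SD, n = 3), 13.0% of the control mean, and the groups did not overlap. In replicates 1, 2 and 3 it was at 19.7%, 9.97% and 9.99% of the control of the same number, so less was lost in replicate 1. Replicate 1 of both groups stood apart from replicates 2 and 3. Libraries of the same number departed from their group means in the same direction, so differences were tested without and with the replicate number as a block. These departures correlated at 0.705 and 0.532 for replicates 2 and 3 of the same number, and at 0.552 and 0.516 across those numbers. The check thus sets replicate 1 apart but hardly tells replicates 2 and 3 from each other, and no label gives the pairing. The main design was the limma fit without the block, in which 0 members and 0 genes passed. Genes are said to have risen or fallen where they passed with the block, an alternative fit, at a limma adjusted p under 0.05 over all 12820 genes. Of 10 Schwann cell markers 3 had means below 10, Sox10 and S100b among them, and Ngfr, Mbp and Ncam1 were well above it. Of the 7 tested Erbb3 rose and Ngfr fell, and the summed level was 19220 to 21461.5 in controls and 18069 to 22622.5 after YAP siRNA. Ncam1 made up most of that sum, with a mean of 14694 in controls and 15732 after YAP siRNA. Some markers of other cell types moved with the siRNA. The epithelial keratin genes Krt8 and Krt18 fell, 2 of 3 tested epithelial markers, and that list's summed level was 267 to 498 in controls and 79.3 to 93.4 after YAP siRNA, with Cdh1 under 10. Of 6 tested fibroblast markers 3 fell (sums 274859 to 572471 and 221935 to 431484, Lum under 10), of 3 tested smooth muscle and pericyte markers 1 rose and 1 fell (10023 to 15511 and 8698 to 10248, Cnn1, Myh11 and Rgs5 under 10), of 4 macrophage markers 1 fell (284 to 341 and 214 to 262, Emr1 under 10), and of 3 endothelial markers 0 passed (150 to 235 and 186 to 271, Tek under 10). Of all tested genes 8.32% rose and 8.96% fell. The smooth muscle marker that rose was Acta2, with 62.2, 28.8 and 73.7 normalized counts in control replicates 1, 2 and 3. After YAP siRNA it had 85.3, 566 and 830. The one that fell was Cspg4, from a mean of 12891 to 9082, and it made up most of that list's sum. The part of these markers in the results on the IGF family was not tested.

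After YAP siRNA the ligand gene Igf1 and the binding protein gene Igfbp7 rose, and the binding protein genes Igfbp4 and Igfbp6 fell. The receptor gene Igf1r, the adaptor gene Irs1, Igfbp3 and Igfbp5 did not pass. Messages of Igf2 and Igfbp2 were at or next to 0 in both groups. In bulk RNA a change in the RNA made per cell and a change in the number of cells that make it cannot be told apart.

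These calls rest on the pairing of libraries by number. Without the block 0 of the 8 tested members passed in limma, where 0% of all tested genes did, and 0 of 8 had an unadjusted p under 0.05, against 1558 of all 12820 genes. Yap1 itself did not pass in limma without the block (adjusted p = 0.118), and it passed with the block (4.5e-04). edgeR and DESeq2 without the block also called 0 members. With the block 2 members were called higher, where 8.32% of all tested genes were, and 2 lower, where 8.96% were, so that 4 of 8 passed in either direction against a background of 17.3%. All 3 pairs were higher after YAP siRNA for 3 members (Igf1, Igfbp7 and Irs1; background 27.4%) and lower for 3 (Igf1r, Igfbp4 and Igfbp6; background 27.1%). The groups overlapped for every tested member, whereas they did not for 19% of all tested genes. The median log2 fold change of the 8 was 0.15, and its median size regardless of sign was 0.60, against 0.0094 and 0.24 over all tested genes. For these 8 genes, two-sided exact permutation tests that ignored the pairing gave p between 0.3 and 0.9, where 3 against 3 libraries cannot go below 0.1. None of the 4 calls held in limma with the block but without a mean-variance trend (adjusted p between 0.104 and 0.192), nor without replicate 2 of both groups (0.0877 to 0.112). Without replicate 1 of both groups, 7 of the 8 passed with the block, 4 higher and 3 lower, and so did 5596 of all 12820 genes. P-values of this fit on 2 pairs rest largely on variance borrowed from other genes, so those given below are not support. The same fit without the block was chosen after the data were seen. In it 1912 genes were called higher and 2106 lower, so its p-values given below are not support.

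**Figure D1:**
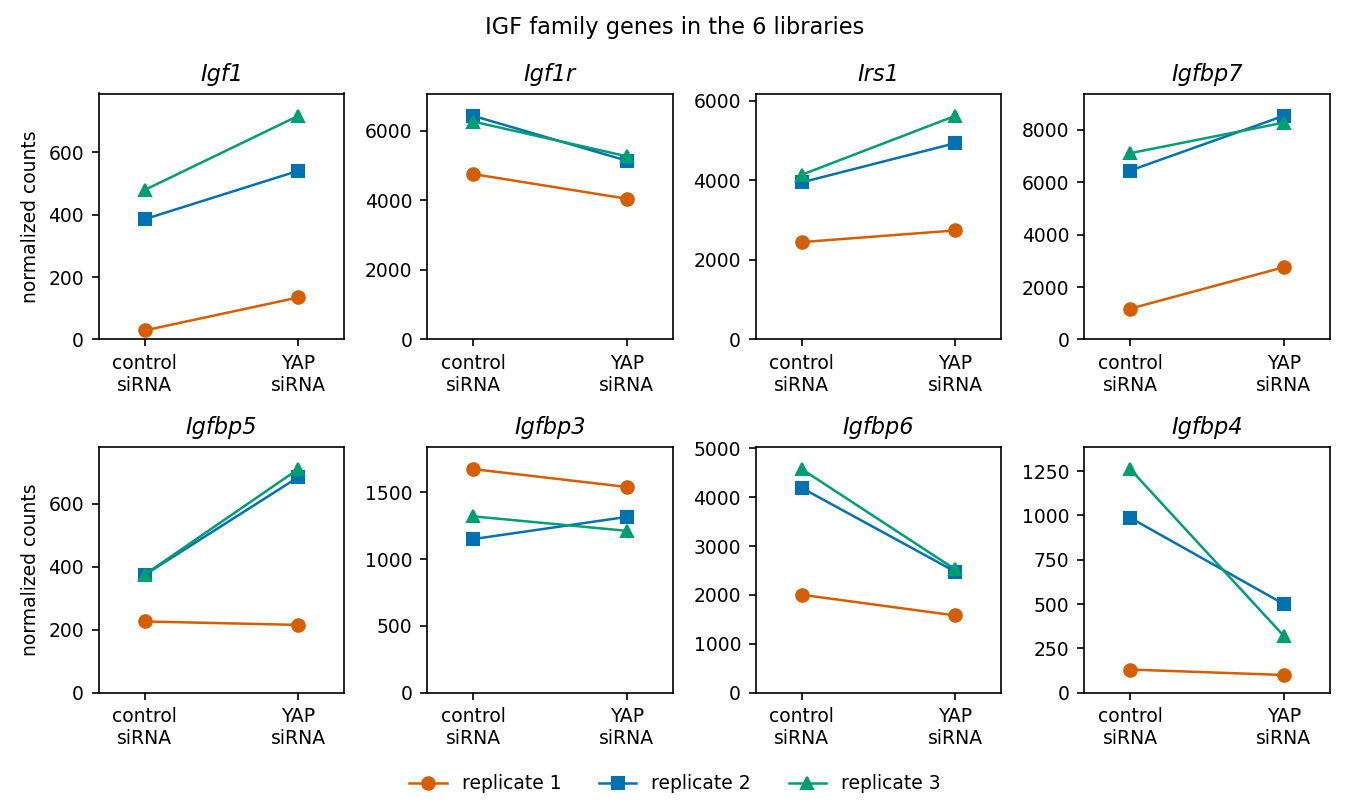
Normalized counts (linear axes from 0) of the 8 tested IGF family genes in the 3 control siRNA and 3 YAP siRNA libraries, with lines joining libraries of the same replicate number. Replicate 1 was the lowest of its group in both groups for 7 of the 8 genes, and for Igfbp3 it was the highest.

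Igf1 encodes the ligand that activates the IGF1 receptor with high affinity, and it was the tested member with the largest fold between paired libraries. It had 28.8, 386 and 480 normalized counts in control replicates 1, 2 and 3, and 135, 541 and 717 in YAP siRNA replicates 1, 2 and 3. The control value of replicate 1 stood far below the others and rested on 19 reads (exact Poisson 95% interval 11.4 to 29.7, counting error only), and the groups overlapped. Each YAP siRNA library was nevertheless above the control of its number, by 4.67-, 1.40- and 1.50-fold in replicates 1, 2 and 3. The log2 fold change, on the log2(value + 1) scale used throughout, was 1.08 (blocked SE 0.312, 95% interval 0.37 to 1.80, blocked limma adjusted p = 0.0463, unblocked 0.807). Leaving out replicate 1 in both groups gave 0.53 (blocked adjusted p = 0.00153). Without the block and without control replicate 1 alone it turned to −0.20 (limma adjusted p = 0.875). Igf1 passed in 7 of 9 fits with the block. It passed in 0 of 17 fits without the block, the one without replicate 1 of both groups included.

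Igf2 encodes the other ligand, abundant in the embryo and expressed from the paternal allele. It had 2 reads in YAP siRNA replicate 1, 1 read in replicate 2 and 0 reads in the other 4 libraries, where a count of 0 allows up to between 1.38 and 4.55 normalized counts per library. No difference was detectable at this depth.

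Igf1r encodes the receptor tyrosine kinase for both ligands. It had 4757, 6432 and 6267 normalized counts in control replicates 1, 2 and 3, and 4047, 5143 and 5269 after YAP siRNA. Every YAP siRNA library was below its paired control, at 85.1%, 80.0% and 84.1% of it, the narrowest spread over pairs among the members. The log2 fold change was −0.27 (95% interval −0.46 to −0.079 with the block, blocked limma adjusted p = 0.0583, unblocked 0.622), which did not pass. It passed without replicate 1 of both groups, at −0.29 (blocked limma adjusted p = 0.00288, unblocked 0.0271).

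Irs1 encodes the docking protein through which the IGF1 and insulin receptors engage PI3-kinase. Its values were 2448, 3951 and 4142 normalized counts in control replicates 1, 2 and 3, and 2742, 4937 and 5624 after YAP siRNA. The paired ratios were 1.12, 1.25 and 1.36, so Irs1 was higher in 3 of 3 pairs while its receptor gene was lower in 3 of 3. The log2 fold change of 0.31 had a blocked 95% interval of 0.096 to 0.52 and did not pass (blocked limma adjusted p = 0.0537, unblocked 0.804). It passed with the block when libraries were rescaled to one total (adjusted p = 0.0406), after quantile normalization (0.0413), in edgeR (0.0491) and without replicate 1 of both groups (7.8e-05).

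Igfbp4 encodes a binding protein that chiefly holds IGFs away from their receptor until it is cut by the protease PAPP-A. It had 130.5, 987 and 1262 normalized counts in control replicates 1, 2 and 3, and 99.8, 501 and 321 in YAP siRNA replicates 1, 2 and 3. Both replicate 1 libraries were low, below each of the other 4, and the YAP siRNA libraries stood at 76.5%, 50.7% and 25.4% of their paired controls. Igfbp4 fell by 1.11 on the log2 scale (SE 0.266 with the block, blocked limma adjusted p = 0.0256, unblocked 0.746). Without replicate 3 of both groups the change was −0.68 and did not pass (blocked adjusted p = 0.0908). Without replicate 1 of both groups it was −1.47 (limma adjusted p = 0.00123 without the block, a fit chosen after the data were seen).

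Igfbp6 encodes a binding protein with a preference for IGF2. Its normalized counts were 2005, 4192 and 4577 in control replicates 1, 2 and 3, and 1581, 2479 and 2524 after YAP siRNA. The control of replicate 1 lay among the YAP siRNA values, so the groups overlapped, while within pairs the YAP siRNA library held 78.9%, 59.1% and 55.1% of the control. Igfbp6 fell by 0.65 on the log2 scale (SE 0.117 with the block, blocked limma adjusted p = 0.00922, unblocked 0.540), the lowest p among the members.

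Igfbp7 encodes a more distant relative that binds IGFs with low affinity and is deposited in the matrix. It had 1173, 6450 and 7112 normalized counts in control replicates 1, 2 and 3, and 2758, 8540 and 8281 in YAP siRNA replicates 1, 2 and 3. The replicate 1 libraries were again the lowest, and the paired ratios were 2.35, 1.32 and 1.16. Igfbp7 rose by 0.62 on the log2 scale (SE 0.172 with the block, blocked limma adjusted p = 0.0415, unblocked 0.853). The rise was 0.31 without replicate 1 of both groups (blocked adjusted p = 7.3e-04). Without the block and without control replicate 1 alone the value was −0.22 (limma adjusted p = 0.803).

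Igfbp5 encodes a binding protein that associates with the extracellular matrix. Control replicates 1, 2 and 3 had 226, 374 and 375 normalized counts, and YAP siRNA replicates 1, 2 and 3 had 215, 684 and 710. In replicates 2 and 3 the YAP siRNA library held 1.83 and 1.89 times the control, and in replicate 1 it held 0.952 times. The log2 fold change was 0.57 (95% interval 0.093 to 1.05 with the block) and did not pass (blocked limma adjusted p = 0.0934, unblocked 0.744). It passed in DESeq2 with the block (adjusted p = 0.0414). From replicates 2 and 3 alone it was 0.89 and passed with the block (limma adjusted p = 3.5e-08) and without (0.00164). P-values of these fits are not support.

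Igfbp3 encodes the main carrier of IGFs in blood. It had 1674, 1150 and 1320 normalized counts in control replicates 1, 2 and 3, and 1540, 1316 and 1212 after YAP siRNA. The pairs went both ways, at 92.0%, 114% and 91.8% of the control. The log2 fold change was −0.016, with a blocked 95% interval of −0.27 to 0.24 (blocked limma adjusted p = 0.933, unblocked 0.991), and it turned to 0.011 when libraries were rescaled to one total.

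Igfbp2 had 0 reads in all 6 libraries, which allows up to between 1.38 and 4.55 normalized counts per library. In the RefSeq gene order its next protein-coding neighbour is Igfbp5, which had at least 215 normalized counts in every library. The gene beside Igfbp3, Igfbp1, was likewise at 0 in every library.

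**Figure D2:**
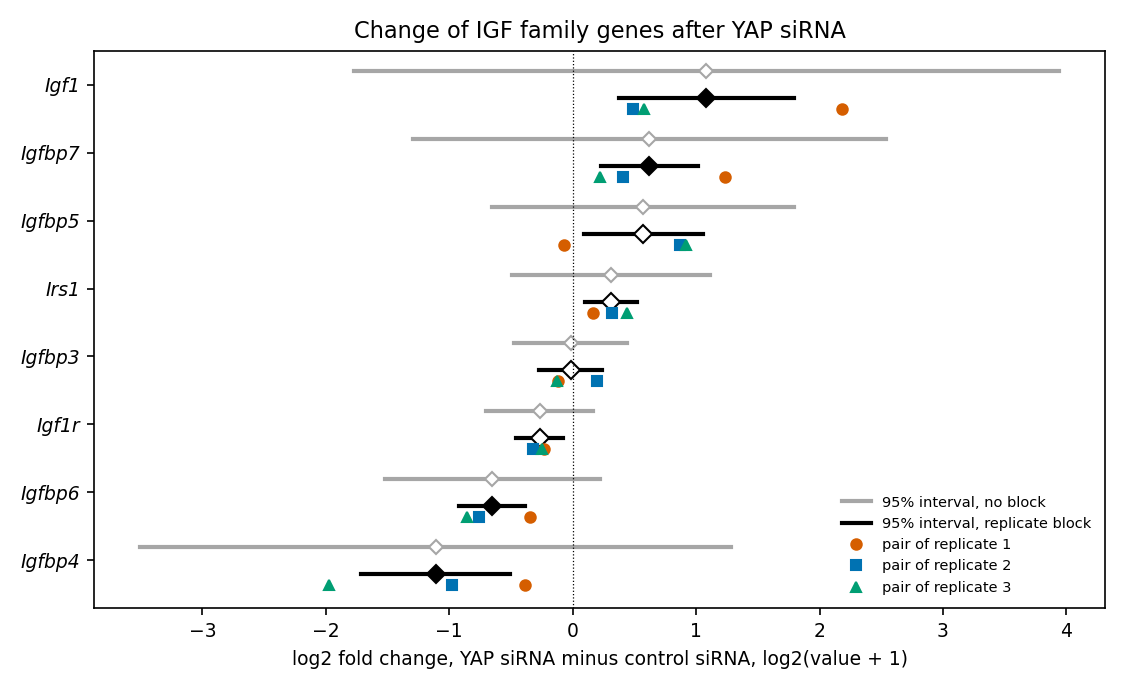
Log2 fold change (YAP siRNA minus control siRNA, log2(value + 1)) of the 8 tested IGF family genes. Grey and black bars are 95% intervals without and with the replicate block, black-filled diamonds mark genes that passed with the block, and coloured symbols are the paired differences of replicates 1, 2 and 3. The unblocked interval spans 0 for each gene, and the blocked one spans 0 for Igfbp3 alone.

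To compare levels between genes, normalized counts were divided by exon length. In control cells Igfbp7 had 4063 ± 2692 normalized counts per kb and Igfbp6 3230 ± 1248 (SD, n = 3), and their ranges overlapped. Igf1r followed at 510 ± 80.9, then Igfbp3 at 441 ± 85.4 and Irs1 at 384 ± 101. Igfbp4 was at 202 ± 150, Igfbp5 at 54.1 ± 14.3 and Igf1 at 30.1 ± 24.0 per kb. Neighbours in this order overlapped in range over the 3 libraries, except that Igfbp6 (1803 to 4116) lay wholly above Igf1r (417 to 564). After YAP siRNA the means per kb ran from 5398 for Igfbp7 and 1973 for Igfbp6 through 485 for Irs1, 433 for Igfbp3 and 422 for Igf1r to 89.3 for Igfbp5, 78.3 for Igfbp4 and 46.9 for Igf1. The receptor message was thus more abundant per length than that of its ligand in each control library, with Igf1r at 417 to 564 and Igf1 at 2.91 to 48.4 per kb.

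Within each pair Igfbp7 made up more, and Igfbp6 less, of the binding protein messages after YAP siRNA. Igfbp7 made up 28.7%, 54.5% and 54.4% of the summed IGFBP level per kb in control replicates 1, 2 and 3, and 53.6%, 71.0% and 70.6% after YAP siRNA, where YAP siRNA replicate 1 lay below control replicates 2 and 3 and the groups overlapped. Igfbp6 made up 53.4%, 38.5% and 38.1% in controls and 33.4%, 22.4% and 23.4% after YAP siRNA. The groups did not overlap in this share, although they did in Igfbp6 counts. Igfbp7 and Igfbp6 held most of the sum in each library, so a higher share of one largely goes with a lower share of the other. Igfbp3 made up 15.8%, 3.75% and 3.90% in controls and 11.6%, 4.22% and 3.99% after YAP siRNA. Igfbp4 and Igfbp5 together were a small part of the sum in each library. That sum itself was 7990 ± 4026 in controls and 7972 ± 3221 after YAP siRNA (normalized counts per kb, SD, n = 3).

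A ratio of 2 genes within a library does not depend on how libraries were scaled. The ratio of Igfbp7 to Igfbp6 counts was 0.585, 1.54 and 1.55 in control replicates 1, 2 and 3, and 1.74, 3.45 and 3.28 after YAP siRNA, which is 2.98-, 2.24- and 2.11-fold higher within pairs. Igfbp7 over Igfbp4 was 8.99, 6.54 and 5.64 in controls and 27.6, 17.1 and 25.8 after YAP siRNA. In both ratios every YAP siRNA library lay above every control library, replicate 1 included. Igfbp5 over Igfbp4 was 1.73, 0.379 and 0.297 in controls and 2.16, 1.37 and 2.21 after YAP siRNA, where control replicate 1 lay among the YAP siRNA values. Igf1 over Igf1r was 0.00606, 0.0600 and 0.0765 in controls and 0.0333, 0.105 and 0.136 after YAP siRNA, higher in 3 of 3 pairs with overlapping groups. These 4 ratios were chosen after the values were seen, so their two-sided exact permutation p-values, 0.1 to 0.5 where 0.1 is the smallest possible, are not support.

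**Figure D3:**
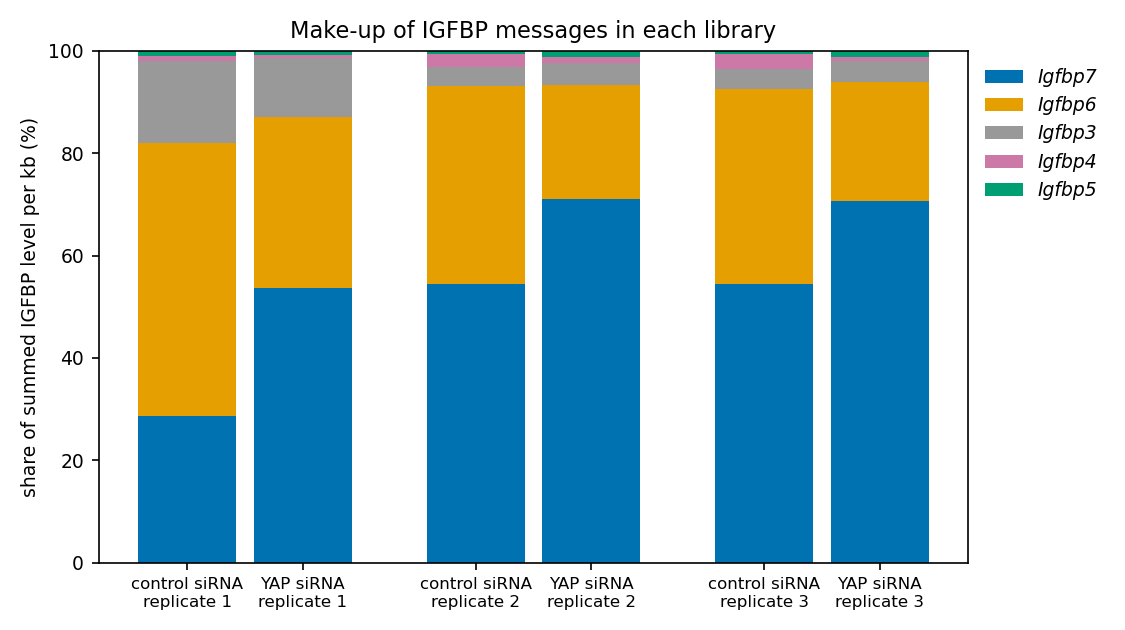
Share (%) of the summed level per kb of exon held by each IGF binding protein gene in the 6 libraries, ordered by replicate number, with Igfbp2 at 0. Igfbp7 held 53.6% to 71.0% after YAP siRNA, above the control of the same number in each pair, and Igfbp6 22.4% to 33.4%.

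Several members differed widely between replicate numbers. Replicate 1 was below replicates 2 and 3 in both groups for 7 of 8 tested members, where 35.2% of all tested genes were. The mean of control replicates 2 and 3 was 15.0 times replicate 1 for Igf1, 8.61 times for Igfbp4 and 5.78 times for Igfbp7. After YAP siRNA it was 4.67, 4.12 and 3.05 times for the same genes. For Igfbp3 it was 0.738 times in controls and 0.821 times after YAP siRNA. Cell type markers also differed by replicate number. For the 6 tested fibroblast markers this fold ran from 1.45 (Pdgfra) to 10.3 (Thy1) in controls, and from 1.52 (Pdgfra) to 8.58 (Dcn) after YAP siRNA. The 7 tested Schwann cell markers went both ways, from 0.414 (Ngfr) to 2.11 (Mbp) in controls and from 0.276 to 2.32 after YAP siRNA. Low values in control replicate 1 were not confined to fibroblast markers. In controls the fold ran from 0.824 (Acta2) to 2.14 (Des) for the tested smooth muscle and pericyte markers. For the tested endothelial markers it ran from 0.742 (Cdh5) to 2.94 (Pecam1). The highest among the tested epithelial markers was 2.68 (Epcam). Of the macrophage markers, Ptprc and Aif1 had 0 in control replicate 1, and the fold of Cd68 was 0.683. What set replicate 1 apart was not tested.

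The sequence upstream of the start site is shown for the 4 members that passed and for Igfbp5 and Irs1, which alone among the tested members hold the core of the binding motif of TEAD, the DNA-binding partner of YAP. All 10 members had an entry in the RefSeq promoter table (14 entries), and the 250 bases before the start are given 5′ to 3′ on the gene's strand, in GRCm38.p6, which is not the build of the deposited counts. Searched motifs are in capitals: the TEAD core CATTCC, the FOXO core TGTTTAC and the loose AP-1 pattern TGANTCA, where N is any base, on both strands.
Igf1, chr10:87860861-87861110, plus strand: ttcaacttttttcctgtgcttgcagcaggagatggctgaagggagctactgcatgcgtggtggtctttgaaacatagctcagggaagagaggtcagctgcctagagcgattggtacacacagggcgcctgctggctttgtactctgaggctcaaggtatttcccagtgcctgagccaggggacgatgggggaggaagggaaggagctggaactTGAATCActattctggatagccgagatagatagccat
Igfbp7, chr5:77408046-77408295, minus strand: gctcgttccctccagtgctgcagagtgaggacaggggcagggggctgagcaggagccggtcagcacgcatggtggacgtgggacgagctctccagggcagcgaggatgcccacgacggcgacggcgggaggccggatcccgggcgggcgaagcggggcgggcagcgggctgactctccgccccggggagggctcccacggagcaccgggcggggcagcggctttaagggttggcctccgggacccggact
Igfbp4, chr11:99040994-99041243, plus strand: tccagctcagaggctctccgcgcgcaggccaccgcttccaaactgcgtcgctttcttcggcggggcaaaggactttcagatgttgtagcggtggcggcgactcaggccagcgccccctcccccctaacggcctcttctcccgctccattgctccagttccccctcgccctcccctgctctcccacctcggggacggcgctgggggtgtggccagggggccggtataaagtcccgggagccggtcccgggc
Igfbp6, chr15:102143936-102144185, plus strand: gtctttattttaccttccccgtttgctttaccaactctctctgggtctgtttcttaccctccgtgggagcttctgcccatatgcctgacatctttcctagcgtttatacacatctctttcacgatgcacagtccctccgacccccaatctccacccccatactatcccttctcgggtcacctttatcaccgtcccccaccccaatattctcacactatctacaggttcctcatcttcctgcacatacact
Igfbp5, chr1:72874866-72875115, minus strand: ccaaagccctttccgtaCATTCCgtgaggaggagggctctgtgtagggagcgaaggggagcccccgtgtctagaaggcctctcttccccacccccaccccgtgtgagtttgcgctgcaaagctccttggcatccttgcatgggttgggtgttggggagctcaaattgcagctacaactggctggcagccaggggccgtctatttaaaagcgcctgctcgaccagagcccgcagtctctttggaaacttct
Irs1, chr1:82291440-82291689, minus strand: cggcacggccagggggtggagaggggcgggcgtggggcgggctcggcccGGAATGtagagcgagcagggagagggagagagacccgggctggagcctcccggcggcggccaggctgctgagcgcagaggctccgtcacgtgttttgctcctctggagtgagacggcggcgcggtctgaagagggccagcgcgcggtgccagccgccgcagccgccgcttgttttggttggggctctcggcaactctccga

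The TEAD core began at base −233 from the start of Igfbp5 and, on the other strand as GGAATG, at −201 of Irs1. It was in 12.6% of the 32851 promoters of the same length. The windows of Igf1, Igfbp7, Igfbp4, Igfbp6, Igf1r, Igfbp3 and Igfbp2 did not hold these letters, and 3 of the 4 Igf2 entries did, a gene next to 0 here. The loose AP-1 pattern, in 6.75% of promoters, was at −37 of Igf1 as TGAATCA and in 1 of 2 entries of Igfbp2 as TGAGTCA. The FOXO core, in 3.17% of promoters, was in none of the 14 entries. GC content of the window was 74.0% for Igfbp7 and 69.2% for Igfbp4, against 52.8% for Igf1, 49.6% for Igfbp6 and a median of 52.4% over all promoters, so it did not separate the genes that rose from those that fell. A match describes the letters in the window and not a bound site.

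Other genes of the IGF and insulin system were counted from lists, for which 0 genes passed with the block when limma was run without a mean-variance trend. With the trend and the block 8.32% of all tested genes rose and 8.96% fell, the background for the counts of each list below. Of 11 further ligands, receptors, binding proteins and adaptors 3 were tested, and 0 passed with the block. Insr, the insulin receptor gene, had the lowest p of these, with 1626 ± 96.5 normalized counts in controls and 2023 ± 134 after YAP siRNA (SD, n = 3, log2 fold change 0.31, blocked limma adjusted p = 0.0763). Ins1, Ins2 and Igfbp1 were at 0 in all libraries.

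Genes for enzymes that cut IGF binding proteins and for inhibitors of those enzymes went both ways. Of 6 tested 2 rose and 2 fell, and 1 and 1 passed without replicate 2 or without replicate 3 of both groups. The median log2 fold change was 0.21, and −0.074 over the 5 with a mean of at least 50. Adam12, a metalloproteinase that can cut IGFBP3 and IGFBP5, had 56.1, 81.8 and 70.5 normalized counts in control replicates 1, 2 and 3, and 222, 232 and 226 after YAP siRNA. The groups did not overlap, and it rose by 1.71 on the log2 scale (blocked limma adjusted p = 0.00273, unblocked 0.123). Without the block DESeq2 called it (adjusted p = 2.3e-09), where 729 of all 12820 genes passed, and edgeR did not (0.130). Stc2, whose product inhibits PAPP-A, fell from 1249, 1615 and 1526 to 816, 627 and 652.5, by 1.07 on the log2 scale (blocked limma adjusted p = 0.00460, unblocked 0.158). DESeq2 without the block called Stc2 too (adjusted p = 3.7e-05), and edgeR did not (0.163). The serine protease gene Htra3 rose by 0.54 (blocked limma adjusted p = 0.0142), a call lost without replicate 2 (0.168) or replicate 3 (0.0598) of both groups. Neither edgeR nor DESeq2 called Htra3 without the block (adjusted p = 0.551 and 0.515). Htra1, which the naming rule did not cover and which is given because it completes the count, fell by 0.47 (blocked limma adjusted p = 0.0360).

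Of 6 tested genes that neighbour Igf2 or control IGF messages 0 rose and 3 fell, with a median log2 fold change of −0.19. Igf2bp1, which encodes an RNA-binding protein named for Igf2 messages, had 719, 932 and 1126 normalized counts in control replicates 1, 2 and 3, and 496.5, 437 and 393 after YAP siRNA. It fell by 1.05 on the log2 scale (blocked limma adjusted p = 0.00859, unblocked 0.180), and did not pass without replicate 2 of both groups (0.0649). Its relative Igf2bp2 fell by 0.34 (blocked limma adjusted p = 0.0383), a call lost without replicate 2 (0.320) or replicate 3 (0.212). The chromatin protein gene Hmga2 fell by 1.06 (blocked limma adjusted p = 0.00217, unblocked 0.733), from 6399, 1061 and 1746 to 3544, 545 and 671 normalized counts. Without the block DESeq2 called Igf2bp1 (adjusted p = 0.00108) but not Igf2bp2 (0.844) or Hmga2 (0.712), and edgeR called none of them. Hmga2 was highest in replicate 1 of both groups, as Igfbp3 was and the other tested members were not, so that its groups overlapped although each YAP siRNA library was below its control.

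Downstream, 6 of 30 tested adaptor and PI3K-AKT genes rose and 3 fell, where 8.32% and 8.96% of all tested genes did. The median log2 fold change of the list was 0.012. Foxo1, a transcription factor gene whose product AKT holds out of the nucleus, had 2534, 2334 and 2519 normalized counts in control replicates 1, 2 and 3, and 3657, 4670 and 5259 after YAP siRNA. Its groups did not overlap, and it rose by 0.86 (blocked limma adjusted p = 0.00368, unblocked 0.165). Foxo4 rose by 0.77 (blocked limma adjusted p = 0.0101, unblocked 0.220), a call lost without replicate 2 of both groups (0.110). Without the block DESeq2 called Foxo1 (adjusted p = 6.6e-04) and Foxo4 (0.00993), and edgeR called neither (0.164 and 0.205). Without replicate 1 of both groups the list's counts were 11 higher and 10 lower, without replicate 2 they were 1 and 1, and without replicate 3 they were 3 and 1. Over all 12820 genes 5596, 300 and 1128 passed in these settings, so the list's counts moved with those of all genes. Of 15 tested genes known as FOXO targets 0 rose and 1 fell, and the median log2 fold change was 0.059. The one was the catalase gene Cat, lower by 0.43 on the log2 scale at blocked limma adjusted p = 0.0291, and not called without replicate 2 (0.243) or replicate 3 (0.172) of both groups. This list had 5 higher and 2 lower without replicate 1 of both groups, and 2 higher and 1 lower in DESeq2 with the block.

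**Figure D4:**
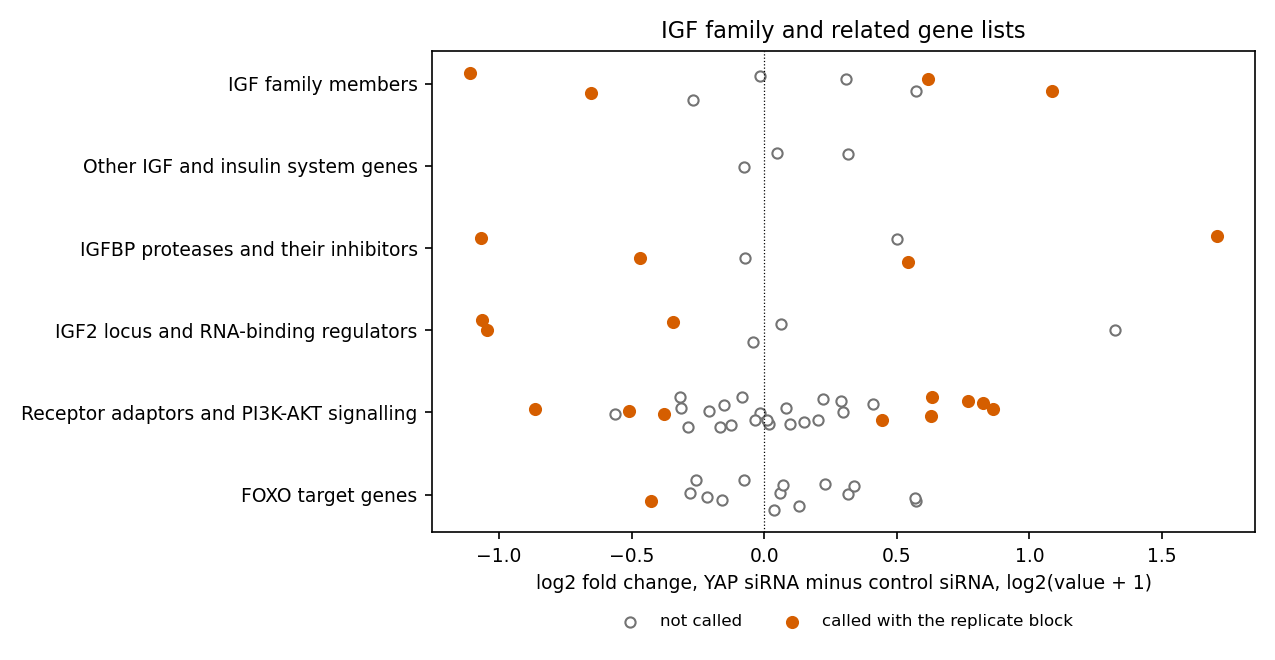
Log2 fold change (YAP siRNA minus control siRNA, log2(value + 1)) of each tested gene of the IGF family and of 5 related lists, 1 point per gene, with vertical position within a row set at random. Filled points passed with the replicate block: 2 higher and 2 lower among IGF family members, and 6 and 3 among adaptor and PI3K-AKT genes. Over all tested genes 8.32% were called higher and 8.96% lower.

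Igfbp6 had the lowest p of the members, and the genes whose pattern was most like it were listed by Pearson correlation of log2 values over the 6 libraries. Among 11224 other genes whose mean reached 50 the closest were Syt12, Col18a1 and Fam69a, each with r = 0.999. With so few libraries and a shared replicate pattern, 558 genes had r above 0.95, so closeness on this measure is common. Col18a1, which encodes a basement membrane collagen, had 10478, 24099 and 27192 normalized counts in control replicates 1, 2 and 3, and 8102, 14030 and 13908 after YAP siRNA, low in replicate 1 as Igfbp6 was.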

How the data were processed

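Poly(A) RNA from 6 libraries was fragmented, ligated to directional adapters and sequenced in pairs, per the labels' protocols. TopHat2 2.0.9, HTSeq 0.6.1, DESeq 1.14.0 and build mm9 are named per the submitters' processing notes; the annotation, the strand setting and how shared reads were treated are not given in these sources. The authors deposited normalized counts, a signal unit in which 1 size factor scales all gene counts of a library. All values above 0 (100%) were whole multiples, within 0.01, of 1 read's worth, so reads were recovered.

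Here log2(value + 1) was tested with limma 3.58.1 in R 4.3.3 (mean-variance trend, two-sided, Benjamini-Hochberg over the 12820 genes whose mean reached 10), without a covariate in the main design. Count tests on the recovered reads (edgeR 4.0.16, DESeq2 1.42.0), other pseudocounts, filters and scalings, and leaving out libraries were alternatives. The method was also run on simulated counts, in which libraries of the same number shared their means before changes were added. That run takes the pairing as given and cannot test it. Deviations from group means correlated at 0.788, 0.705 and 0.532 for same-numbered libraries, each above the minimum of 0.1 set for pairing, which comes from this check and not from a label; replicates 2 and 3 of different number also correlated, at 0.552 and 0.516. Libraries within a group differed by more than sampling noise (chi-square per degree of freedom 8.04 to 267). Exon lengths came from GENCODE M21 and gene order from RefSeq (GRCm38.p6), used without coordinates. Named were all members, Yap1, up to 3 passing genes per list (or the 1 with the lowest p) and the 3 genes most like the member with the lowest p; a gene this rule covers is not reported here. Members and lists were chosen with earlier results of these data known.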

Additional observations from a re-analysis of the deposited data

How the results depend on the processing

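Without the replicate block, limma called 0 members and 0 genes with pseudocounts of 0.5 and 10, without a filter, with a mean of at least 50, with one total, with quantiles and without a trend, as did edgeR; DESeq2 called 0 members and 729 genes. With one library left out and no block, members called stayed at 0 and genes ranged from 0 to 497, with 497 in the absence of control replicate 1 and 8 in the absence of YAP siRNA replicate 1. With replicate 1 of both groups left out and no block, chosen after seeing the data, 3 members were higher, 3 lower and 4018 genes passed.

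With the replicate block, 2 members were higher, 2 lower and 2216 genes passed. The counts were 3, 2 and 2479 in edgeR, 3, 2 and 2490 in DESeq2, 3, 2 and 2252 with one total, 3, 2 and 2323 with quantiles, and 0, 0 and 30 in limma without a trend. Leaving out replicate 1, 2 or 3 of both groups gave 4, 3 and 5596, then 0, 0 and 300, then 2, 1 and 1128. P-values of a blocked fit on 2 pairs rest largely on variance borrowed from other genes. In limma with the trend and all 6 libraries as deposited, the block changed the call of Igf1, Igfbp4, Igfbp6 and Igfbp7 and of no other member; in other fits it also changed that of Irs1 (adjusted p = 0.0491 in edgeR, 0.0406 with one total and 0.0413 with quantiles) and of Igfbp5 (0.0414 in DESeq2).

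The sign of Igfbp3 turned to 0.011 with one total (with and without the block), to 0.036 without replicate 1 of both groups (with and without the block) and to 0.037 without replicate 3 of both groups with the block. With single libraries left out and no block, Igfbp3 ranged from −0.14 to 0.13, Igf1 from −0.20 to 1.82, Igfbp7 from −0.22 to 1.15 and Igf2bp2 from −0.75 to 0.021. Depth limits Igf2 and Igfbp2, and the 19 reads of Igf1 in control replicate 1.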
